A study of Caenorhabditis elegans with 9 samples.

Results

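The response of vhl-1 mutant worms to H, the RNA presumably taken in hypoxia, was compared with the response of wild type worms, gene by gene, on 3 arrays of each genotype. The genes are those whose spots carry a gene name and were measured on 2 or more arrays of each genotype: 7179 of the 7200 names on the array, and 7179 of 20858 features tested in all. The series holds 9 spotted 2-colour arrays of Caenorhabditis elegans total RNA, 3 each of wild type (wt), a vhl-1 mutant and a hif-1 mutant. Each array set RNA called H, in Cy3, against RNA called N, in Cy5, both of one genotype and replicate. H and N are not spelled out in the labels; the series title speaks of hypoxia. The labels give no allele, worm age, tissue, oxygen level or exposure time, and they do not say whether the 3 replicates of a genotype were separate cultures, so the p-values reflect no more than the scatter of these arrays. No dye was swapped, so a dye effect lies in each response, and one that is alike in both genotypes cancels in their difference.

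Values are log2 ratios of H over N, so that 1 means 2-fold more RNA in H and a negative value means less. The direction and the base of the logarithm are likely but not stated: the other direction would turn every sign below and leave every p-value as it is. The difference is the mean of the vhl-1 arrays minus the mean of the wt arrays. A gene passed where its p-value from limma, adjusted with the Benjamini-Hochberg method across the 20858 features, was under 0.05. In RNA from many cells, fewer cells of a type and less RNA per cell cannot be told apart.

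HIF-1 is a transcription factor through which animal cells answer low oxygen. In normal oxygen the prolyl hydroxylase EGL-9 marks it, and VHL-1, the substrate-binding part of a ubiquitin ligase, has it destroyed. A vhl-1 mutant therefore keeps HIF-1 in normal oxygen, and its H over N ratio measures what oxygen still does when this route of control is missing. A hif-1 mutant lacks the factor in both RNAs. Neither hif-1 nor vhl-1, nor egl-9, rhy-1 or any other of the 11 pathway genes listed, had a named spot, so the values offer no check of the genotypes. Of 13 HIF-1 target genes listed, 1 was measured, F22B5.4.

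The arrays differed in how well they matched their own group. Across named genes the 3 vhl-1 arrays correlated with each other at 0.42 to 0.63, and the wt arrays at 0.05 to 0.45. The wt array of replicate 1 stood apart from replicate 3, at 0.05, and correlated with the vhl-1 arrays at 0.27 to 0.40. With the same vhl-1 arrays, wt replicate 2 correlated at 0.18 to 0.24 and wt replicate 3 at 0.02 to 0.25. Which wt array is the more typical was not tested. These correlations are across genes, which are not independent, and the points share dye and print. The spread of the mean response over genes (median absolute deviation) was 0.34 in wt, 0.48 in vhl-1 and 0.42 in hif-1. Between 21296 and 21487 spots per array had a value. The brightness of the spots was not used here.

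No named gene passed in the difference (0% of 7179 genes). The lowest adjusted p was 0.193, for R12E2.8 (limma), and 1 of all 20858 features passed (0.00479%), an unnamed spot. At an unadjusted p under 0.05 there were 714 named genes (9.95%), of which 403 were lower in the vhl-1 mutant (5.61%) and 311 were higher (4.33%). Over all 20858 features the shares were 10.1% in either direction, 5.61% lower and 4.49% higher. The typical standard error of a difference was 0.372, and the difference was over 1 in either direction in 491 named genes. When limma weighted each array by how closely it matched the fitted genotype means, 78 named genes passed (1.09%), 46 lower and 32 higher. All 78 had an unadjusted p under 0.05 without the weights. Both fits and the weights come from the same arrays, so this overlap is no separate support. The weights ran from 0.441 to 1.85, with 0.679 for wt replicate 1.

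The median difference over the 7179 genes was -0.01 and 50.9% were below 0. Among genes with all 6 values the 3 vhl-1 arrays lay wholly below the 3 wt arrays for 647 (9.4% of 6881) and wholly above for 606 (8.81%); over all features these shares were 8.78% and 9.19%. For 174 genes every wt array was above 0 and every vhl-1 array below (2.53%), and for 122 it was the other way round (1.77%). For this trait the shares over all features were not counted, so these counts have no background beside them. In the 403 genes with a lower value the medians of the group means were 0.34 in wt, -0.79 in vhl-1 and -0.36 in hif-1. In the 311 genes with a higher value they were -0.25 in wt, 0.75 in vhl-1 and 0.30 in hif-1. The vhl-1 response was farther from 0 than the wt response in 319 of the 403 and 248 of the 311. These genes were picked by the same difference, so their medians describe them and test nothing.

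**Figure D1:**
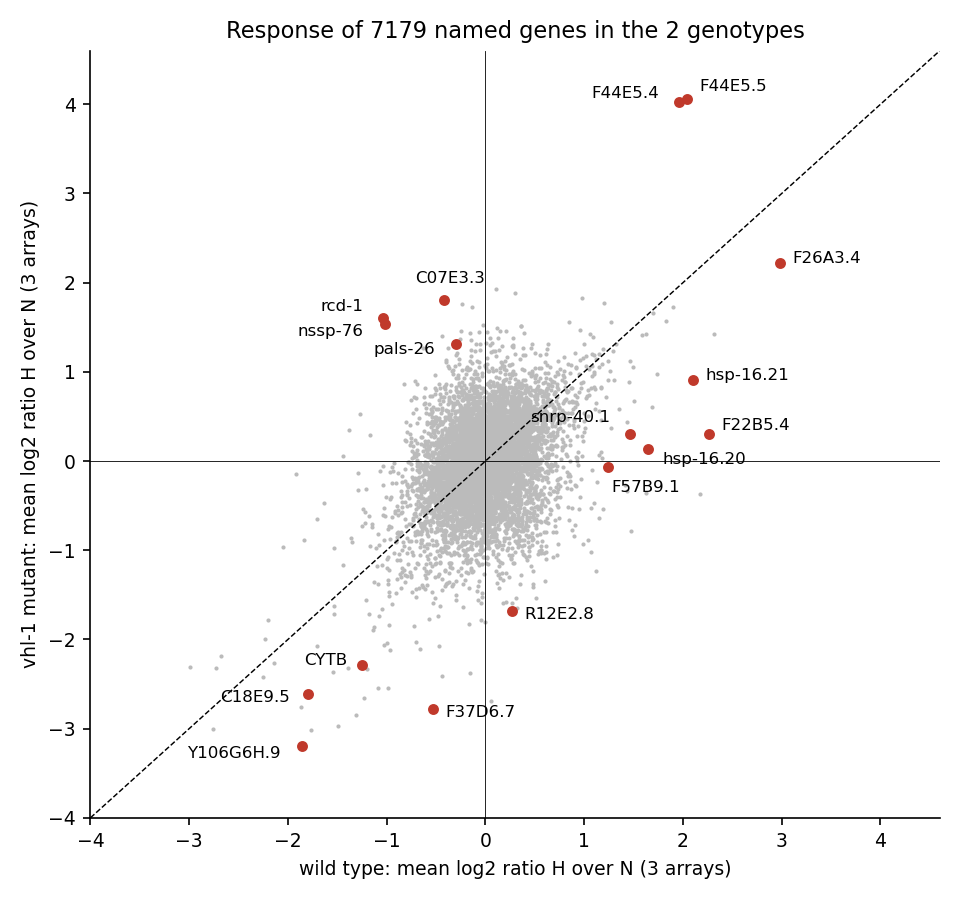
Mean log2 ratio of H over N in wt (horizontal axis, 3 arrays) against vhl-1 (vertical axis, 3 arrays), 1 dot per named gene, with genes named in the text in red and a dashed line where both are equal. F22B5.4, hsp-16.20 and F57B9.1 lie far to the right near a vhl-1 value of 0, while F44E5.4 and F44E5.5 lie near 2 in wt and 4 in vhl-1.

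The 10 genes with the lowest p among those lower in vhl-1 fell in the vhl-1 mutant and had small ratios of either sign in wild type. R12E2.8 gave 0.10, 0.25 and 0.44 on the wt arrays and -1.52, -1.75 and -1.75 on the vhl-1 arrays. Wild type was thus slightly above 0 on every array, and the mutant at 0.313 of its N level. The difference was -1.94 (SE 0.296, adjusted p = 0.193, limma), and the fall within vhl-1 passed (adjusted p = 0.000647, limma). In hif-1 worms R12E2.8 stood at -0.56, -0.46 and -0.96, between the other genotypes.

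B0280.7 gave 0.15, 0.55 and 0.75 in wt against -0.97, -1.72 and -1.56 in vhl-1, a difference of -1.90 (SE 0.34). ZK470.6 gave 0.12, 0.17 and 0.75 against -1.64, -1.52 and -0.96, a difference of -1.72 (SE 0.321). F14F7.4 gave 0.03, -0.24 and 0.09 against -2.0, -1.18 and -2.15, a difference of -1.73 (SE 0.336). In all 3 genes the genotypes are well apart, as the rule that chose them required, and wild type lies near 0. C30G12.1 varied least: it gave 0.14, 0.10 and 0.15 in wt and -1.34, -1.26 and -1.24 in vhl-1, a difference of -1.41 (SE 0.281). C05C9.1 differed by -1.86, R03G5.6 by -1.78, D2030.7 by -1.71, K07A1.1 by -1.64 and slfl-3 by -1.43. For the 9 genes after R12E2.8 the adjusted p was 0.250 (limma). All 10 fell in the vhl-1 response taken alone, with adjusted p from 0.000647 for R12E2.8 to 0.0467 for slfl-3 (limma), and none passed in wt. The hif-1 arrays of these 10 genes were all below 0, with means from -1.44 for B0280.7 to -0.57 for F14F7.4. B0280.7, C30G12.1 and ZK470.6 passed in hif-1 too (adjusted p = 0.0135, 0.0152 and 0.0439, limma), and the others did not. The hif-1 mean was slightly below the vhl-1 mean for B0280.7 and slfl-3 and above it for the others.

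The 10 genes with the lowest p among those higher in vhl-1 showed the opposite pattern, with a rise in the mutant for 8 of them. nssp-76 gave 0.07, -1.69 and -1.43 in wt and 1.43, 1.13 and 2.06 in vhl-1. Its H over N ratio was thus 0.494 in wild type and 2.90 in the mutant, with wt replicate 1 between the other wt arrays and the mutant. The difference was 2.55 (SE 0.47, adjusted p = 0.250, limma), and it ran from 2.22 without wt replicate 2 (adjusted p = 0.642) to 3.10 without wt replicate 1 (adjusted p = 0.0595). rcd-1 gave 0.37, -2.13 and -1.36 against 2.31, 1.57 and 0.95, a difference of 2.65 (SE 0.554, adjusted p = 0.250), with 2.10 without wt replicate 2 (adjusted p = 0.642) and 3.35 without wt replicate 1 (adjusted p = 0.0595). C07E3.3 gave 0.37, -0.15 and -1.47 against 1.99, 2.24 and 1.18, a difference of 2.22 (SE 0.458). For these 3 genes the wt arrays spread over more than 1.5 units, and replicate 1 was the highest of them.

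fdr-1 gave 0.35, -0.54 and -0.93 in wt and 0.97, 1.46 and 1.38 in vhl-1 (difference 1.64, SE 0.364, adjusted p = 0.260, limma). pals-26, of a gene family known for roles in the worm's response to intracellular pathogens, gave 0.12, -0.26 and -0.74 against 1.69, 1.33 and 0.94, a difference of 1.61 (SE 0.373). T21E8.5 gave -0.69, -0.94 and -0.78 against 0.31, 0.54 and 0.47, a difference of 1.24 (SE 0.302). T21E8.5 was below 0 on every wt array and above 0 on every vhl-1 array, but neither response passed (adjusted p = 0.102 in wt and 0.204 in vhl-1, limma). Y45G12C.6 (1.35) did the same on all 6 arrays. F53A9.6 differed by 1.41, Y39A3A.4 by 1.29 and F15E6.3 by 1.85, and from F53A9.6 on the adjusted p was 0.278 (limma). In hif-1 worms the means of the 10 genes ran from -0.09 for T21E8.5 to 1.25 for C07E3.3. Each lay between the wt and the vhl-1 mean, and none passed in hif-1. In 6 of the 10 genes wt replicate 1 was above 0. Over the 305 genes higher at an unadjusted p under 0.05 with all 6 values, wt replicate 1 was the wt array nearest the vhl-1 mean in 195, and over the 388 lower ones in 248; over all such named genes it was nearest in 41.6%.

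**Figure D2:**
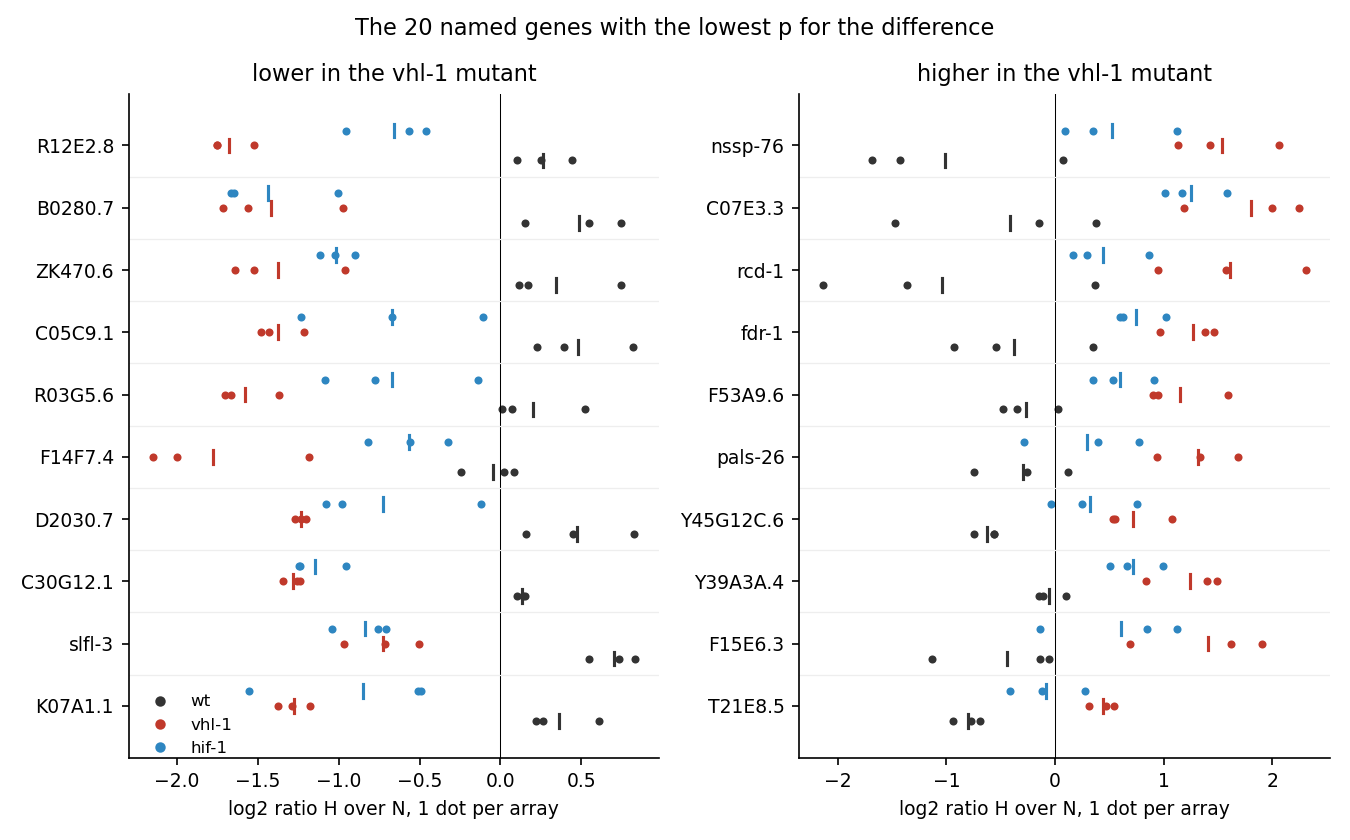
Log2 ratio of H over N on every array (1 dot per array, bar = group mean of 3 arrays) for the 10 named genes with the lowest p in each direction, lower in vhl-1 on the left and higher on the right. The black wt dots sit near or above 0 on the left and mostly below 0 on the right, and the blue hif-1 dots mostly lie between wt and vhl-1.

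The response that passed in wild type included 34 named genes, of which 16 rose (0.223% of 7179) and 18 fell (0.251%). Of the 16 that rose, 15 were nearer to 0 in the vhl-1 mutant and 6 passed there too, with medians of 1.39 in wt and 0.91 in vhl-1. Of the 18 that fell, 11 were nearer to 0 in vhl-1 and 14 passed there too, with medians of -1.74 and -1.93. These genes were chosen on the wt arrays, which alone draws their wt values outward. The difference itself had an unadjusted p under 0.05 for 4 genes of each group.

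F22B5.4, a gene of unknown function and the 1 measured gene of the HIF-1 targets listed, had the largest difference of the 34. Its wt arrays stood at 0.94, 2.50 and 3.33 and its vhl-1 arrays at 0.09, 0.08 and 0.74. All 3 wt arrays were above all 3 vhl-1 arrays, with the closest pair 0.94 and 0.74. Wild type rose to 4.79 times the N level (adjusted p = 0.00813, limma), while vhl-1 stood at 1.23 times (adjusted p = 0.623). The difference was -1.96 (SE 0.516, adjusted p = 0.280, limma). It ran from -1.42 without wt replicate 3 (adjusted p = 0.715) to -2.62 without wt replicate 1 (adjusted p = 0.0754), and with array weights the adjusted p was 0.0411. The hif-1 arrays gave 0.35, -0.33 and 0.60, a mean of 0.21 beside 0.30 in vhl-1. A ratio of H over N does not show whether the N level of F22B5.4 differed between genotypes.

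Other genes that rose in wild type had small ratios in the mutant. F57B9.1 gave 0.77, 1.33 and 1.61 in wt and -0.57, -0.23 and 0.60 in vhl-1, a difference of -1.30 (SE 0.382, adjusted p = 0.287, limma). F21D12.3 gave 1.12, 1.69 and 1.01 against 0.47, -0.17 and 0.79, a difference of -0.91 (adjusted p = 0.453, limma). Both genes had no overlap between the genotypes. snrp-40.1, which codes for a protein of the U5 splicing particle, gave 0.30, 2.15 and 1.94 against 0.02, 0.00 and 0.89, so the genotypes overlapped through wt replicate 1. Its hif-1 arrays were lower still, at -1.05, -0.73 and -0.66.

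Some genes that passed in wild type had nearly the same mean in both genotypes. F02D10.2 averaged 1.32 in wt and 1.31 in vhl-1, dpsm-1 1.58 and 1.42, and K10C3.4 0.95 and 1.13. These 3 were picked for their small differences, and all 3 also passed in vhl-1. F26A3.4, a predicted dual specificity phosphatase, had the highest wt mean of the 34, 2.98, against 2.22 in vhl-1. Its arrays overlapped, at 1.62, 4.27 and 3.07 in wt and 1.35, 2.19 and 3.12 in vhl-1. The difference was -0.77 with an SE of 0.709, and ran from -0.12 without wt replicate 2 to -1.45 without wt replicate 1.

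Of the 18 genes that fell in wild type, 7 had lower values still in vhl-1. Y106G6H.9 gave -2.34, -1.0 and -2.24 in wt and -2.96, -2.51 and -4.10 in vhl-1, a difference of -1.33 (SE 0.471, adjusted p = 0.375, limma). F49F1.7 gave -0.86, -2.18 and -2.27 against -1.88, -3.92 and -3.26, a difference of -1.25 (SE 0.553, adjusted p = 0.472) that was -0.79 without wt replicate 1. Y106G6H.9 did not overlap between the genotypes and F49F1.7 did. C18E9.5 averaged -1.80 and -2.61 (difference -0.81), C10G11.6 -1.13 and -1.86 (difference -0.73), and erp-44.3, a thioredoxin-like protein gene of the endoplasmic reticulum, -1.86 on 2 wt arrays and -2.76 (difference -0.89). Without wt replicate 1 the difference was -0.46 for C18E9.5 and -0.52 for erp-44.3, the latter with 1 wt array left. Without vhl-1 replicate 3 it was -0.88 for Y106G6H.9. The other 11 were nearer to 0 in vhl-1. Of these, F56C9.8 averaged -1.24 in wt and -0.53 in vhl-1, a difference of 0.71 (adjusted p = 0.485, limma). C38H2.2 averaged -1.25 and -0.72, a difference of 0.52 (adjusted p = 0.575, limma).

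In the vhl-1 response 442 named genes passed, 183 that rose (2.55%) and 259 that fell (3.61%), against 34 in wt; in hif-1 36 rose (0.501%) and 38 fell (0.529%). The counts moved with the settings: with arrays scaled to one spread they were 281 in vhl-1 and 96 in wt, the vhl-1 count was 60 without vhl-1 replicate 2, and the wt count was 2 without wt replicate 3. The counts of the genotypes were not tested against each other. Of the 442 genes, 336 had the same sign of the mean in wt and 20 passed there. The 183 that rose had medians of 1.07 in vhl-1, 0.22 in wt and 0.56 in hif-1. The 259 that fell had medians of -1.18, -0.39 and -0.62. The difference had an unadjusted p under 0.05 for 224 of the 442, which were chosen on the vhl-1 arrays. F37D6.7 gave -3.47, -3.92 and -0.95 in vhl-1 and -0.41, -0.62 and -0.58 in wt. The difference was -2.25 (SE 0.642, adjusted p = 0.281, limma), with vhl-1 replicate 3 close to wild type. ZK1320.3 gave -2.92, -3.19 and -1.01 in vhl-1 and -0.56, -1.47 and 1.57 in wt, so the genotypes overlapped (difference -2.22, SE 0.834, adjusted p = 0.390, limma, and -1.36 without wt replicate 3).

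The 4 measured heat shock genes did not share a direction. F44E5.4 and F44E5.5, nearly identical neighbours that code for the inducible chaperone HSP70, had higher values in the vhl-1 mutant, while the small heat shock genes hsp-16.20 and hsp-16.21 had lower ones. F44E5.4 gave 1.18, 1.53 and 3.18 in wt and 2.96, 4.69 and 4.42 in vhl-1, so that wt replicate 3 overlapped the lowest vhl-1 array. F44E5.5 gave 1.04, 1.81 and 3.26 against 2.93, 4.15 and 5.09. Spots of such similar genes may bind each other's RNA, so the pair counts as 1 observation rather than separate ones. F44E5.4 stood at 3.89 times its N level in wt and at 16.3 times in vhl-1. The differences were 2.06 (SE 0.737, adjusted p = 0.375, limma) for F44E5.4 and 2.02 (SE 0.742, adjusted p = 0.382) for F44E5.5. In vhl-1 both rose (adjusted p = 0.000788 for F44E5.4 and for F44E5.5, limma). In wt the adjusted p was 0.102 for F44E5.4 and 0.0887 for F44E5.5 (limma). Both also rose in hif-1 worms, with means of 2.45 and 2.59 (adjusted p = 0.0368 and 0.0301, limma). Their highest hif-1 arrays, at 4.23 and 4.14, lay inside the range of the vhl-1 arrays.

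hsp-16.20 gave 0.38, 2.72 and 1.85 in wt and 0.64, -0.38 and 0.13 in vhl-1. Wt replicate 1 lay inside the range of the vhl-1 arrays and the other wt arrays above it. The difference was -1.52 (SE 0.599, adjusted p = 0.418, limma), and it ran from -0.98 without wt replicate 2 to -2.15 without wt replicate 1. hsp-16.21 gave 0.95, 3.67 and 1.68 against 0.41, 1.68 and 0.63, a difference of -1.19 (SE 0.609, adjusted p = 0.536) that was -0.41 without wt replicate 2. In hif-1 worms hsp-16.21 was at 2.57, 2.33 and 3.56, above every vhl-1 array. hsp-16.20 was at -0.13 and 1.69 on the 2 hif-1 arrays with a value, the lower of them inside the vhl-1 range.

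**Figure D3:**
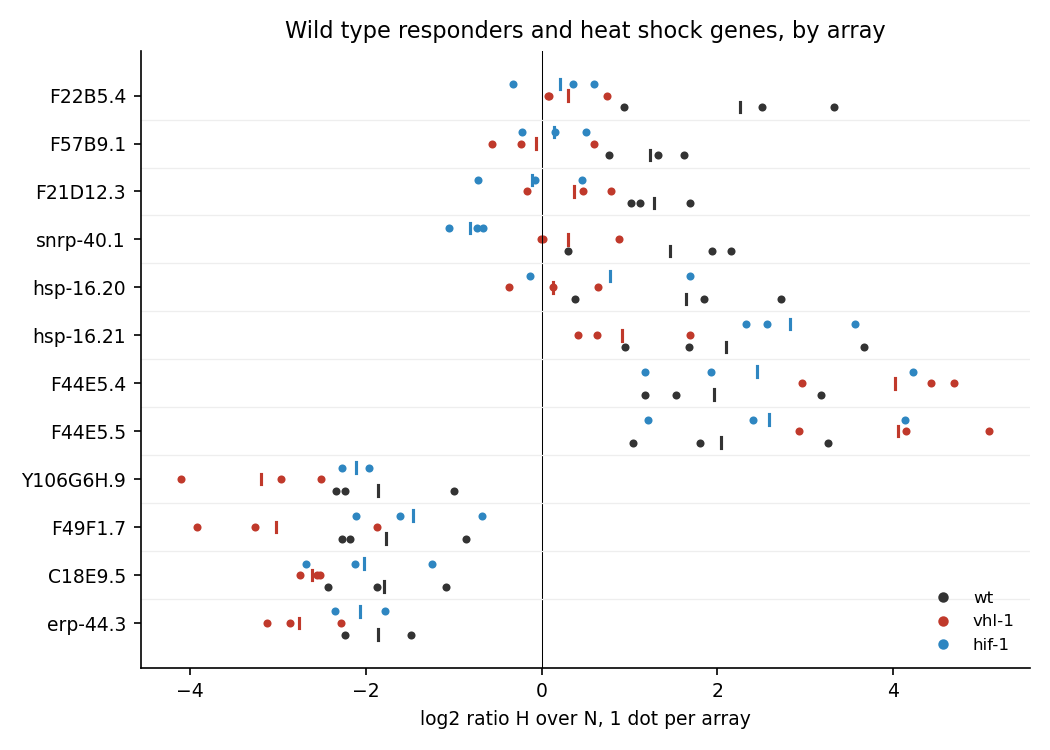
Log2 ratio of H over N on every array (1 dot per array, bar = group mean) for genes that passed in wild type and for the 4 heat shock genes. F22B5.4 and F57B9.1 show wt dots to the right of all vhl-1 dots, and F44E5.4 and F44E5.5 show vhl-1 means near 4 beside wt means near 2.

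Among gene families, the idp genes, named for intrinsically disordered proteins, were lower in vhl-1 in 24 of 26 members. Their median difference was -0.84, beside -0.01 over all 7179 named genes. Of the 26, 11 had an unadjusted p under 0.05 and a lower value (5.61% of all named genes did), 0 had a higher one, and 13 had vhl-1 arrays wholly below the wt arrays (9.4% of all named genes with 6 values). None passed the adjusted threshold in the difference. The medians of the group means were 0.29 in wt, -0.61 in vhl-1 and -0.24 in hif-1. idpp-9 gave -0.21, 0.69 and 1.21 in wt and -0.90, -1.27 and -0.67 in vhl-1, a difference of -1.51 (SE 0.383, adjusted p = 0.278, limma). idpc-7 gave 0.86, 0.70 and 1.18 against -0.42, -0.37 and -0.04, a difference of -1.19 (SE 0.32, adjusted p = 0.281), and idpb-2 0.14, 0.39 and 0.38 against -0.74, -0.98 and -0.59, a difference of -1.07 (SE 0.293). idpc-7 and idpb-2 were above 0 on every wt array and below 0 on every vhl-1 array.

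The exceptions among the idp genes were idpp-8 (0.11) and idpp-10 (0.27), and idpp-10 was at -0.02 without vhl-1 replicate 1. idpb-3 had low ratios in both genotypes, at -2.33 and -2.18 on the 2 wt arrays with a value and at -5.09, -1.29 and -0.87 in vhl-1, so its difference of -0.16 rests on a wide spread. The number of idp genes at an unadjusted p under 0.05 was 6 without wt replicate 3, 7 without vhl-1 replicate 2 and 17 with array weights. The idp genes lie on several chromosomes; they share a kind of protein and not necessarily ancestry, and some may share sequence that cross-hybridises, which was not measured.

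All 8 measured protein genes of the mitochondrial genome had a difference below 0, with a median of -0.50, but 0 of the 8 reached an unadjusted p of 0.05. These genes are read from the same long transcripts and are not independent of each other. CYTB, the cytochrome b of respiratory complex III, gave -1.02 and -1.48 on the 2 wt arrays with a value and -3.29, -1.42 and -2.13 in vhl-1, where it fell (adjusted p = 0.00121, limma). Its difference was -1.03 (SE 0.488, adjusted p = 0.504), and -0.53 without vhl-1 replicate 1. Of the complex I subunits, ND2 averaged 0.04 in wt and -0.75 in vhl-1 (difference -0.78), and ND5 0.05 and -0.65 (difference -0.70). ND5 was within 0.03 to 0.07 on the wt arrays and at -0.62, -0.36 and -0.96 on the vhl-1 arrays. ND1 (-0.46), ND4 (-0.52), ND6 (-0.40), ND3 (-0.18) and ATP6 (-0.49), a subunit of ATP synthase, were lower as well. In all 8 genes vhl-1 replicate 2 was nearer to the wt mean than the other vhl-1 arrays or above it. In hif-1 worms ATP6, ND2, ND3, ND4, ND5 and ND6 moved together by array. They stood at 0.51 to 1.72 on replicate 1 and at -1.195 to -0.463 on replicate 2. ND1 and CYTB were below 0 on both. Of the 5 respiratory chain genes of the nucleus measured, none had an unadjusted p under 0.05, with a median difference of 0.15.

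Families with a median above 0 held fewer genes past the unadjusted threshold. The 11 clc genes, which code for claudin-like membrane proteins, had a median of 0.78, with 8 above 0 and 2 higher at an unadjusted p under 0.05 (4.33% of all named genes were). clc-19 gave 0.70, -1.63 and 0.17 in wt and 2.07, 0.79 and 1.26 in vhl-1 (difference 1.63, SE 0.524, adjusted p = 0.320, limma). clc-32 gave 0.35 and -0.93 on 2 wt arrays and 1.45, 1.20 and 0.99 in vhl-1 (difference 1.51, SE 0.44). The difference of clc-19 was 0.94 without wt replicate 2 and that of clc-32 0.87 without wt replicate 3, the latter with 1 wt array left. Both rose in vhl-1 taken alone (adjusted p = 0.0376 for clc-19 and 0.0211 for clc-32, limma). Of the 13 spig genes 12 were above 0, with a median of 0.46 and 0 at an unadjusted p under 0.05. The 51 gtnt genes had a median of 0.27, with 32 above 0 and 3 higher at an unadjusted p under 0.05, a share near the 4.33% of all named genes. The gtnt gene with the lowest p was gtnt-18 (1.6, SE 0.466).

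The carboxylesterases, enzymes that split esters, held 22 of 32 cest genes above 0, with a median of 0.17. Of these 32, 4 were higher at an unadjusted p under 0.05 and 1 was lower, beside 4.33% and 5.61% of all named genes. cest-7 gave -0.56, -0.19 and -0.63 in wt and 0.67, 0.44 and 0.14 in vhl-1, a difference of 0.88 (adjusted p = 0.375, limma). cest-1.1 (0.80) and cest-6 (1.09) were higher as well, and cest-28 (-0.84) was the lower gene with the lowest p. Of the 22 pals genes 14 were above 0, with a median of 0.08, and 3 were higher at an unadjusted p under 0.05: pals-26, described above, pals-2 (1.29) and pals-32 (0.95, and 0.59 without vhl-1 replicate 1). Over all named genes 4.33% were higher in this way. Of the 41 nssp genes 24 were below 0, with a median of -0.13. In this family 4 were higher at an unadjusted p under 0.05 (4.33% of all named genes), among them nssp-76 and nssp-86 (1.35, SE 0.4), and nssp-39 was lower (-1.02, SE 0.391).

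**Figure D4:**
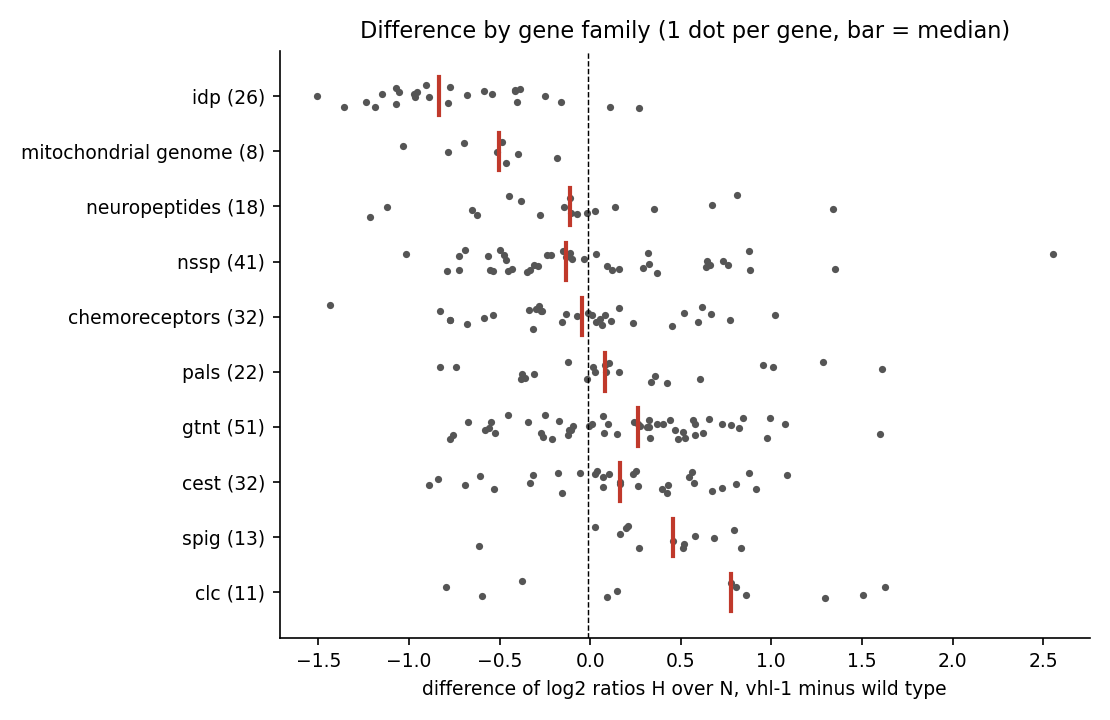
Difference of the log2 ratios of H over N, vhl-1 minus wt, for each measured gene of 10 lists (1 dot per gene, red bar = median, number of genes in brackets). The idp dots lie left of 0 except for 2, and the spig dots lie right of 0 except for 1.

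Neuropeptide-like genes, whose products are cut from precursors and signal between cells, went both ways. Of 18 measured, 12 were below 0. nlp-55 gave 0.39, -0.74 and 0.04 in wt and 1.28, 1.45 and 0.98 in vhl-1, a difference of 1.34 (SE 0.445, adjusted p = 0.333, limma), with hif-1 at a mean of -0.03. nlp-49 differed by -1.21. nlp-61, with 2 spots, differed by 0.81 in their mean and by -0.10 in the spot of lowest spread. Of 32 genes with symbols of chemoreceptor type, 2 were lower and 1 was higher at an unadjusted p under 0.05, shares near the 5.61% and 4.33% of all named genes, and srlf-30 had the lowest p (-1.44, SE 0.34).

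Some smaller lists follow, beside shares over all named genes of 5.61% lower and 4.33% higher at an unadjusted p under 0.05. With so few members, their counts describe single genes rather than families. Of 15 transporters 1 was lower at this threshold, slc-25A18.2, of the mitochondrial carrier family. It gave -0.04, 0.45 and 1.17 in wt and -0.90, -1.31 and -0.90 in vhl-1 (difference -1.57, SE 0.353, adjusted p = 0.273, limma). Of 3 splicing genes 2 were lower, snrp-40.1 and snrp-40.2 (-1.45, SE 0.38), and snrp-3 differed by 0.50. Of 6 translation initiation genes 1 was higher, eif-2D (0.96, SE 0.375), at -1.49, -0.20 and -1.51 in wt and -0.09, 0.09 and -0.33 in vhl-1. Lists of cell type markers were thinly covered. Of 8 germ line and embryo markers 1 was lower, spe-58, a gene of sperm formation (-0.92, SE 0.39), and their median was -0.04. Of 5 cuticle collagens 0 reached an unadjusted p of 0.05, with dpy-7 at 0.74. Muscle and neuron markers had 0 measured members and the intestine 1, so a change in these tissues' share of the RNA was not tested.

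Genes that lie next to each other were examined for shared differences, since neighbours in this genome may be copies or share a transcript. In 5 groups at least 3 named genes in a row had an unadjusted p under 0.05 in the same direction. Neighbouring starts lay at most 15000 bases apart in the WBcel235 annotation, and genes without a named spot may lie between them. Over all named genes 5.61% were lower and 4.33% higher at this threshold. How many such groups these shares alone would give was not worked out. On chromosome X the 4 genes F53A9.6, F53A9.7, F53A9.8 and F53A9.9 were all higher. F53A9.7 gave 0.57, -0.05 and -0.08 in wt and 1.41, 1.39 and 1.59 in vhl-1, and F53A9.8 gave 0.03, -0.18 and 0.21 against 1.29, 2.06 and 0.99. The differences were 1.31 (SE 0.343, adjusted p = 0.278, limma) for F53A9.7 and 1.43 (SE 0.407, adjusted p = 0.281) for F53A9.8, with 0.80 for F53A9.9. F53A9.6, F53A9.7 and F53A9.8 rose in vhl-1 taken alone, with adjusted p of 0.0103, 0.00329 and 0.00963 (limma).

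On chromosome IV F13B6.1 (1.12), F13B6.2 (1.47) and F13B6.3 (1.37) were higher. F13B6.3 gave 0.78, -0.46 and -0.50 in wt and 1.61, 0.90 and 1.41 in vhl-1, with hif-1 at 0.96, 1.16 and 1.55. In all 3 of these genes hif-1 was close to vhl-1. The 3 groups with lower values were T23H2.6 (-0.90), K06A5.3 (-1.54) and K06A5.2 (-1.78) on chromosome I, T05B4.9 (-1.24), T05B4.10 (-1.64) and T05B4.12 (-0.90) on chromosome V, and idpp-5 (-1.36), F35A5.5 (-1.18) and F35A5.2 (-1.23) on X. K06A5.2 rested on vhl-1 replicates 1 and 2, at -3.38 and -1.61, with replicate 3 at 0.21. Without wt replicate 3 the difference was -0.58 for T05B4.9, -0.50 for T05B4.12 and -0.76 for F35A5.2. The groups were picked by their p-values, and binding of one gene's RNA to a similar neighbour's spot was not measured.

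**Figure D5:**
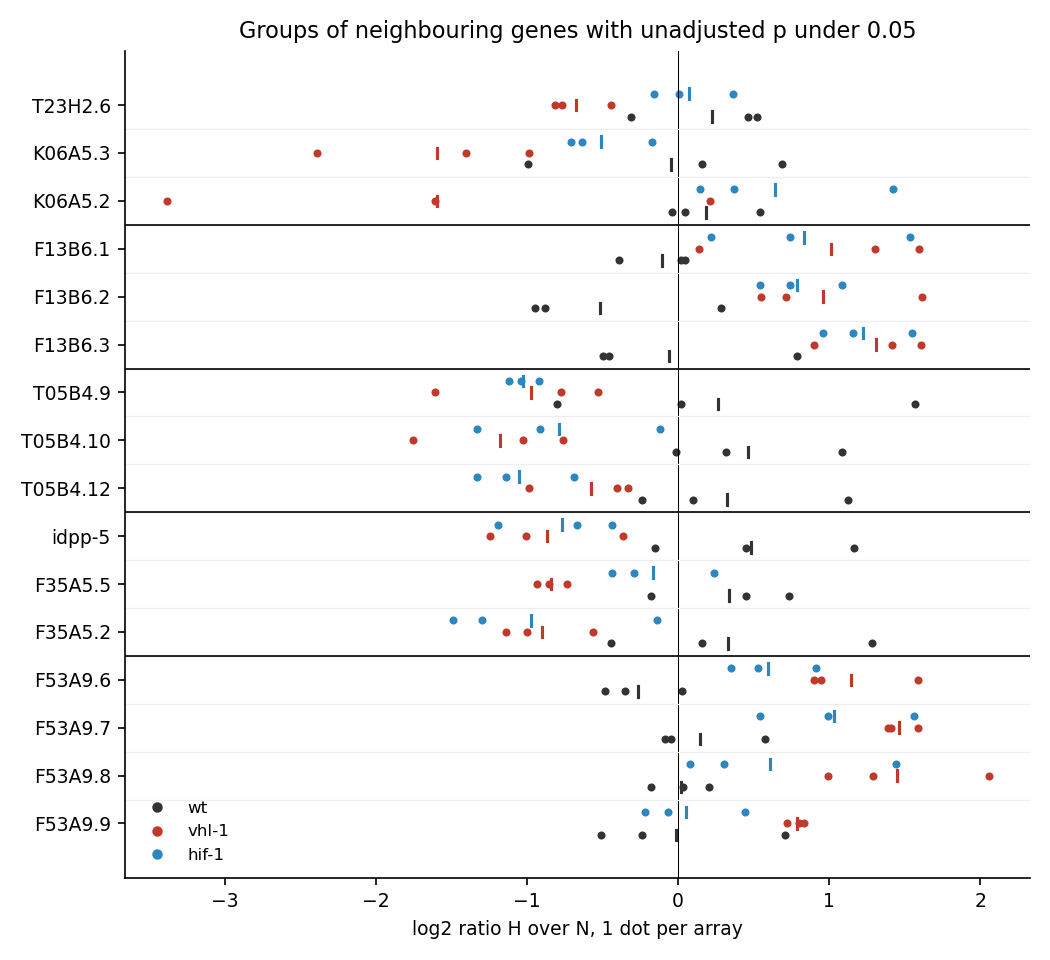
Log2 ratio of H over N on every array (1 dot per array, bar = group mean) for the 5 groups of neighbouring named genes with an unadjusted p under 0.05 in the same direction, groups divided by lines. The vhl-1 dots lie right of most wt dots in the F13B6 and F53A9 groups and left of most wt dots in the others.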

How the data were processed

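The deposited values are log2 ratios of the 2 channels, 1 per spot and array; base and direction are read from the values and the titles, and were not stated by the authors. How the images were read and normalised is not given in the sources used here. Of 21888 spots, 7774 had 1 gene name in the platform annotation, 0 had several and 14114 had none. Names were updated by gene ID through a RefSeq table of WBcel235 (7741 spots matched).

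The sign was turned to H over N, the array medians were set to 0, a gene's spots were averaged, and a feature was kept if 2 or more arrays of each genotype measured it. limma 3.58.1 (R 4.3.3, statmod 1.5.0; lmFit and eBayes) fitted 1 mean per genotype to all 9 arrays (6 residual and 6.95 prior degrees of freedom), so that hif-1 arrays help set the spread. 3 arrays per genotype limit the precision. The steps were tested on simulated data.

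The members and lists were chosen with earlier results of these data known. Named by rule were the 10 non-overlapping genes with the lowest p per direction, the 5 genes with the largest difference among those passing in wt and in vhl-1, F22B5.4 and the heat shock genes, and, from a list with 3 or more members, no more than 4 members, by p. The clc, gtnt and spig families, the neighbour groups, the mitochondrial genes beyond 4 and genes with small differences were chosen after their values were seen. Alternatives covered centring, scaling, filters, print position, array weights, a replicate block and leaving out each array.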

Additional observations from a re-analysis of the deposited data

Results flagged for a closer look

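In the following genes every wt array and every vhl-1 array lay on opposite sides of 0, as for 174 and 122 named genes in the 2 directions. For each, limma's test of the difference between the genotypes missed an adjusted p of 0.05, except for the unnamed spot. Above 0 in wt and below in vhl-1 were R12E2.8 (-1.94), B0280.7 (-1.90), C05C9.1 (-1.86), R03G5.6 (-1.78), ZK470.6 (-1.72), D2030.7 (-1.71), K07A1.1 (-1.64), snrp-40.2 (-1.45), srlf-30 (-1.44), slfl-3 (-1.43), C30G12.1 (-1.41), idpc-7 (-1.19), idpb-2 (-1.07), cest-28 (-0.84) and ND5 (-0.70), the value being the difference, vhl-1 minus wt. chtb-1 gave 0.69, 1.06 and 2.67 in wt and -1.16, -0.76 and -0.43 in vhl-1, a difference of -2.25. Below 0 in wt and above in vhl-1 were F15E6.3 (1.85), nssp-86 (1.35), Y45G12C.6 (1.35), T21E8.5 (1.24), cest-7 (0.88) and cest-1.1 (0.80).

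The unnamed spot probe_21826 was the only one of 20858 features to pass. It gave 0.98, 1.02 and 0.41 in wt, -2.54, -1.50 and -2.17 in vhl-1 and -1.45, -1.34 and -1.55 in hif-1. The difference was -2.87 (SE 0.342, adjusted p = 0.0284, limma).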

How the results depend on the processing

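With array weights 238 features and 78 named genes passed in the difference, and 707 lower and 614 higher named genes had an unadjusted p under 0.05. The 1 feature that passed was lost (0) with scaled arrays, the 6 arrays alone, the replicate block and print block centring, and the fit of named genes alone (0 passed) did not hold that spot; the count was 0 to 1 over single arrays left out, while named genes stayed at 0 to 0. The 34 genes passing in wt became 96 with scaled arrays, 0 with named genes alone, 8 with print place centring and 133 with array weights (2 to 47 leaving out arrays). They were 4 without wt replicate 2 and 2 without wt replicate 3. The 442 in vhl-1 became 281 with scaled arrays, 727 with 6 arrays alone and 1478 with array weights (60 to 692 leaving out arrays). They were 60 without vhl-1 replicate 2, 97 without vhl-1 replicate 3, 217 without vhl-1 replicate 1, and 692 without hif-1 replicate 2. The 403 lower and 311 higher genes ran from 255 to 532 and from 184 to 381 leaving out arrays; they were 261 and 184 without wt replicate 2 and 255 and 190 without wt replicate 3. No label says that a replicate number marks a common culture or day, so the numbers were not taken as pairs. The deviations of same-numbered wt and vhl-1 arrays correlated at -0.04, -0.03 and 0.20. With other numbers the highest correlations were 0.16, 0.10 and -0.04, so this check does not decide the pairing. With the replicate block 416 lower and 295 higher genes had an unadjusted p under 0.05, 38 genes passed in wt and 411 in vhl-1. probe_21826 had an adjusted p of 0.0554 with the block and 0.327 without wt replicate 2.

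Of 95 features named in the text, 87 kept their sign over 20 alternatives. Many were picked for a low p or for genotypes that do not overlap. Without overlap, leaving out an array cannot turn the sign, so this count is no test of the differences. The signs turned for idpb-3 (0.10 scaled, 0.70 with the replicate block, 0.29 with array weights, 1.17 without vhl-1 replicate 1, -0.94 to 1.17 leaving out arrays), K10C3.4 (-0.008 scaled), dpsm-1 (0.012 with print block centring, 0.017 with array weights, -0.42 to 0.19 leaving out arrays), F02D10.2 (0.21 with print block and 0.054 with print place centring, 0.22 with array weights, -0.24 to 0.41 leaving out arrays), idpp-8 (-0.25 with print block centring, -0.080 to 0.25 leaving out arrays), idpp-10 (-0.024 to 0.50 leaving out arrays), ND3 (0.10 with print block centring, 0.053 with array weights, -0.68 to 0.15 leaving out arrays) and nlp-61 (-0.10 with its spot of lowest spread). Why these values moved was not tested. Spot intensities were not used, so signal over background as a limit is unknown.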

Other observations

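Genes that passed in the hif-1 response were chosen on arrays that enter neither mean of the difference, apart from the shared spread. Of the 36 that rose in hif-1 worms, with a median of 1.26 there, 27 had a larger value in vhl-1 than in wt, and the medians were 0.87 in vhl-1 and 0.42 in wt. Of the 38 that fell, with a median of -1.37, 29 had a lower value in vhl-1 than in wt, and the medians were -1.20 and -0.75. At an unadjusted p under 0.05 for the difference there were 15 of the 36 and 11 of the 38, beside 9.95% of all named genes. Both tests use the same spread estimate for a gene, so these shares are not an independent comparison. This set was added after the data were seen.

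With array weights, folr-1, a folate receptor gene (-1.37 unweighted), twnk-1, which codes for the helicase of the mitochondrial genome (-1.62), chtb-1 (-2.25) and irg-8, an infection response gene (1.44), were among the 78 named genes that passed. folr-1 gave -0.04, -0.02 and -0.20 in wt and -1.30, -1.67 and -1.41 in vhl-1. twnk-1 gave -0.06, 0.93 and 1.83 against -0.56, -0.69 and -0.89. irg-8 gave -0.54, -0.91 and -0.71 against -0.23, 0.91 and 1.48.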
